A study of Mus musculus with 12 samples.

Results

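CpGs in promoters that were methylated in undivided B cells were followed through the fractions of a division experiment. A CpG belonged to the set where the deposited annotation places it in a promoter (for most, from 2500 bp before to 500 bp after the nearest start site) and at least 80% of its reads were methylated in both libraries of undivided cells. This gave 14513 CpGs, out of 132376 promoter CpGs and 760348 CpGs in all. They lie in promoters of 4676 of the 12229 genes with a covered promoter CpG. Because the level in undivided cells chose them, every difference from undivided cells is given below as a description, and tests were run only between the other fractions.

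The cells were splenic B cells (B220+ CD43-) of naive mice, loaded with CFSE or CTV, dyes that are diluted at each division, and placed in uMT mice, a strain that lacks mature B cells of its own. The hosts, numbered 196 and 197, then received lipopolysaccharide (LPS), a bacterial ligand that makes B cells divide and form plasmablasts. On day 3 the dye and an antibody to CD138, a plasmablast surface marker, were used to sort 6 fractions from each host. Div0 had not divided, Div1, Div3 and Div5 are named for their number of divisions, and at 8 divisions and beyond Div8neg lacked CD138 while Div8pos carried it. All samples were labelled female, 8 weeks old and from spleen. The strain label reads B6.SJL-Ptprca Pepcb/BoyJ, whereas the design text names C57/BL6J donors, and the sources used here do not say whether both hosts received cells of the same donors. All fractions had been transferred and exposed to LPS, so no fraction is an untreated control. The 12 libraries of reduced representation bisulfite sequencing, which reads DNA near MspI and TaqI cut sites, held between 17969105 and 56775157 reads summed over CpGs. The median coverage of the followed CpGs was 20 to 62 reads per library.

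A methyl group on the cytosine of a CpG is copied to the new strand after replication by the maintenance methyltransferase, and methylation is lost with division where copying fails or where the mark is actively oxidised. Most promoters of mammalian genes are CpG islands that carry no methylation in any somatic cell. The promoters that are methylated in blood cells include CpG-dense promoters of germline genes, which are silenced in the embryo, and CpG-poor promoters of genes used in other tissues.

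Lineage gene lists were set against the share over all genes, of which 4676 of 12229 held a CpG of the set. At least 1 was held by 4 of 15 covered B cell identity genes, 8 of 12 T cell genes, 2 of 6 myeloid genes, 4 of 7 NK cell genes and 4 of 5 erythroid genes. The mean Div0 level over all their covered promoter CpGs was 24.8%, 30.7%, 17.6%, 39.8% and 22.8% in the same order. These levels do not separate B cell genes from genes of the other lineages, so the labelled cell type was not settled by them.

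Sequences of 7 methylated promoters are shown so that the covered CpGs behind some of the values can be seen. They were picked after their values were known and do not represent the set: the median number of CpGs in 300 bases was 8 in methylated promoters lower at Div8pos and 9 in the others. Each is the RefSeq promoter (GRCm38.p6, 250 bases before to 50 after the start), printed 5′ to 3′ on the strand of the gene, and capitals mark the covered CpGs. These were placed by the spacing of the mm9 positions alone. Slc44a4 (chr17:34914216-34914515, plus strand), Olfr750 (chr14:51071393-51071692, minus strand) and Sec1 (chr7:45694353-45694652, minus strand) belong to promoters whose mean level was lower at Div8pos than at Div1.
Slc44a4: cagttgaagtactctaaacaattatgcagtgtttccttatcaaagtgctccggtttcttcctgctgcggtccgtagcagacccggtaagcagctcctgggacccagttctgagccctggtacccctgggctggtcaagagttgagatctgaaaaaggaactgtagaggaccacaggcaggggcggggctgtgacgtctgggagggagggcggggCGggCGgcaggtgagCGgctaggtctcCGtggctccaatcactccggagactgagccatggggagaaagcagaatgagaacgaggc
Olfr750: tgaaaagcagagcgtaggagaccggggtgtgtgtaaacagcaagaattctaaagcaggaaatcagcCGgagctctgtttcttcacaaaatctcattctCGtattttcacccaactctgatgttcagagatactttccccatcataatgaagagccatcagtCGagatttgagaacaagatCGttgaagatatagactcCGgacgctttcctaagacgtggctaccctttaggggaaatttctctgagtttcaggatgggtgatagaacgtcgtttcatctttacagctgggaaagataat
Sec1: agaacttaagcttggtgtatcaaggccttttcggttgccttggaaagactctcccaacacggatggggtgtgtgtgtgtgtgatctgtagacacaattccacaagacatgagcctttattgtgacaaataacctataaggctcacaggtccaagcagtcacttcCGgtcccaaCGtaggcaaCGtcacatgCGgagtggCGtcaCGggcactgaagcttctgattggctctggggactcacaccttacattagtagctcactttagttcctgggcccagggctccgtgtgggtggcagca
Ddx4 (chr13:112652261-112652560, minus strand), Slc25a31 (chr3:40708621-40708920, plus strand), Hsf5 (chr11:87616914-87617213, plus strand) and Oxgr1 (chr14:120042386-120042685, minus strand) were not called lower. These 4 hold 38, 22, 34 and 13 CpGs, and the first 3 sequences hold 13, 11 and 9.
Ddx4: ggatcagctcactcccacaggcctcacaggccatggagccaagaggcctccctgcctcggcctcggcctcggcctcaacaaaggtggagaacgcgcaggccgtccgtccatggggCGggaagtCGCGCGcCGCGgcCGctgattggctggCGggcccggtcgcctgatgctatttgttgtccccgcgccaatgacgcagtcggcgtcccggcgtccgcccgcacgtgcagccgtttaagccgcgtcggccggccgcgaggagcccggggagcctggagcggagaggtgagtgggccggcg
Slc25a31: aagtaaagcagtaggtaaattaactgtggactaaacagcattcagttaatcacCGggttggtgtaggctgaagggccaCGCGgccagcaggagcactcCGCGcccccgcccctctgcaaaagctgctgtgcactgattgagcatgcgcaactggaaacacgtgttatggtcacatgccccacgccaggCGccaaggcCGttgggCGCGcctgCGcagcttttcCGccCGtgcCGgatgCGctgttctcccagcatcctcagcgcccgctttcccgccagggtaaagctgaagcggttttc
Hsf5: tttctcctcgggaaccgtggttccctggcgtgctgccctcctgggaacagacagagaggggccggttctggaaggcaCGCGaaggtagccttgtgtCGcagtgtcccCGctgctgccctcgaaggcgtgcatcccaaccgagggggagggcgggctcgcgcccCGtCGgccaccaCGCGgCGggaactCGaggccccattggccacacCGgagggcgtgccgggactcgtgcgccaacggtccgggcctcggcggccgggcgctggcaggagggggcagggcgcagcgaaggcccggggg
Oxgr1: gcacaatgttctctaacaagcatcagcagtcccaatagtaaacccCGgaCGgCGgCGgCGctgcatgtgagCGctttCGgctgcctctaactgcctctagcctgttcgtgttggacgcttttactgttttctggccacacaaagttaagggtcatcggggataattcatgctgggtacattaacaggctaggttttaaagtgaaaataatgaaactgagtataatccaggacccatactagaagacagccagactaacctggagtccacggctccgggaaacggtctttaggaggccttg

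In the printed Slc44a4 window the 4 covered CpGs lie within 28 bp and had a mean level of 89.1% ± 2.21 (SD over n = 2 hosts) at Div1. In Div8neg it was 77.0% ± 11.9, and in Div8pos 56.7% ± 3.19. Slc44a4 encodes a choline transporter-like protein. The 5 covered CpGs of Olfr750, an odorant receptor gene, went from 91.6% ± 1.15 at Div1 to 77.8% ± 1.27 at Div8pos. In the Sec1 window the 6 covered CpGs had 98.3% ± 0.701 at Div1 and 93.3% ± 1.58 at Div8pos, and the larger falls in that promoter lay outside the printed bases. The 8 covered CpGs of the Ddx4 window had 95% ± 0.188 at Div1 and 91.5% ± 4.94 at Div8pos, where host 196 had 88.0%. Ddx4 encodes the germ cell RNA helicase VASA. The 14 covered CpGs of the Slc25a31 window, the promoter of a testis ADP/ATP carrier, had 96.1% ± 0.704 and 94.3% ± 1.79. The 11 covered CpGs of Hsf5, a testis heat shock factor, had 97.5% ± 0.583 and 96.2% ± 0.827. The 7 covered CpGs of Oxgr1, which encodes the oxoglutarate receptor, had 97.5% ± 1.96 at Div1 and 95.7% ± 0.138 at Div8pos. The promoter of AI661453, whose RefSeq sequence holds 34 CpGs, was called lower, with a window mean of 82.4% ± 2.09 at Div8pos, so neither a high nor a low CpG number went with 1 outcome in these promoters.

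The first question was how far the set as a whole lost methylation. The mean level in hosts 196 and 197 was 95.4% and 95% at Div0, 94.5% and 94.4% at Div1, 94.5% and 94.1% at Div3, and 93.8% and 93.4% at Div5. It was 89.9% and 89.3% at Div8neg and 84.7% and 84.1% at Div8pos. The hosts differed by less than 1 point in every fraction, and the values of Div5, Div8neg and Div8pos did not overlap with each other or with those of earlier fractions. Within hosts the mean difference from Div1 was -0.175 points (SD 0.173, n = 2) for Div3 and -0.880 points (SD 0.190) for Div5. For Div8neg it was -4.91 points (SD 0.392), and for Div8pos -10.1 points (SD 0.354). CpGs outside promoters that met the same Div0 limit, 368313 of them, differed by -0.211, -0.831, -4.28 and -9.07 points. The promoter set thus fell by slightly more than this comparison class at Div8neg and Div8pos, in both hosts. The classes share the limit and were not matched by level: their mean Div0 levels were 95.2% in the set and 95.7% outside promoters. The difference between the classes was not tested. The fall was mostly partial. At Div8pos 74.0% and 72.7% of the set still had a level of at least 80%, and only 32 and 39 CpGs were under 20%.

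**Figure D1:**
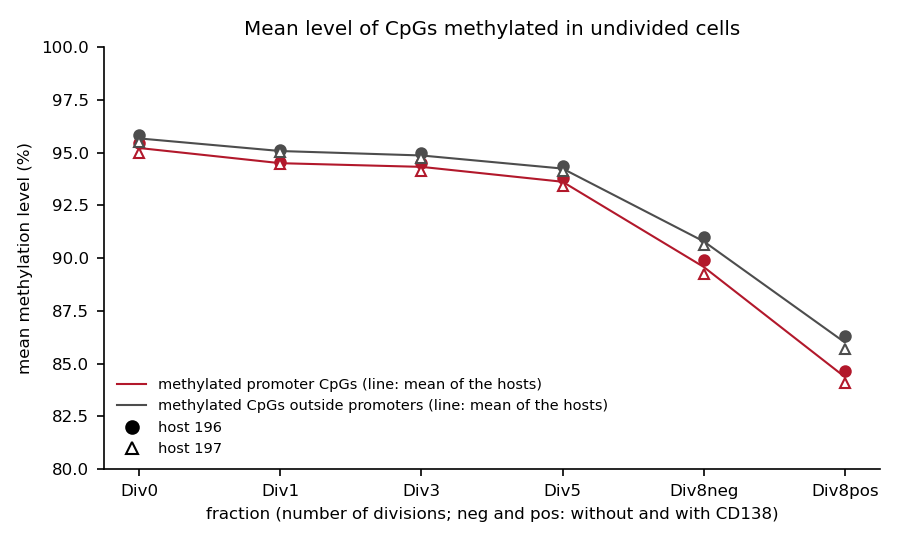
Mean methylation level in percent of the promoter CpGs methylated in undivided cells (red) and of CpGs outside promoters chosen by the same Div0 level (grey), by fraction, with 1 symbol per host and a line through the host means. Levels changed by under 2 points up to Div5 in both classes. The promoter set was near 90% at Div8neg and near 84% at Div8pos, and the grey class near 91% and 86%. Div8neg and Div8pos are separate sorts of the same division number, so the line between them is no time course.

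At the threshold, 576 promoter CpGs whose lower Div0 level was 80% to 82% had a mean of 85.4% at Div0 and 71.0% at Div8pos, and 338 just outside, at 78% to 80%, had 83.1% and 69.9%.

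Early divisions were compared with Div1. A CpG is called lower where a quasi-binomial logistic model gave a Benjamini-Hochberg adjusted p under 0.05 and the host means differed by at least 20 points. At Div3 against Div1, 0 of the 14513 CpGs were lower by that model, with 0.00881% of all CpGs called. At an unadjusted p under 0.05 by the same model, 480 of the 14513 were lower, as were 24758 of all 760348 CpGs. The share of the set was near that over all CpGs. In either direction 884 of the set and 45967 of all CpGs had such a p. edgeR's quasi-likelihood test called 0 of the set and 6 of all CpGs. At Div5 against Div1, 17 (0.117%) were lower, where 0.0948% of all CpGs and 0.0815% of methylated CpGs outside promoters were called. The share of the set was near both, and edgeR called 5 of the set and 317 of all CpGs. These 17 lie in promoters of 16 genes. All moved down in both hosts, as did 714 of the 721 called over all CpGs, so this follows largely from the call. The clearest was 2309 bp before Sdcbp2 (syntenin-2), at position 151396058 of chromosome 2 in mm9, outside any annotated exon or intron. Its level was 86.7% and 87.2% at Div1, 78.4% and 85.7% at Div3, 33.3% and 31.4% at Div5, 6.25% and 24% at Div8neg and 0% and 4.76% at Div8pos. At Div8pos of host 196 it rested on 20 reads, which allows a level of up to 15% by counting error. An intronic CpG 178 bp after the start of Ccr6, the receptor for CCL20 on B cells, at chromosome 17 position 8436851, had 79.2% and 93.0% at Div1, 38.5% and 37.0% at Div5, 15% and 40.9% at Div8neg and 45% and 48.6% at Div8pos. A CpG 945 bp before Retn (resistin) had 100% and 85.6% at Div1, 48.1% and 51.2% at Div5 and 59.6% and 56.4% at Div8pos. For both, Div8pos did not pass against Div8neg (adjusted p 0.453 and 0.895), and no late fraction was tested against Div5. The count of 17 fell to 2 without Div1 of host 197, to 1 without Div5 of host 197 and to 0 with the host as a block in the first fit made (17 with residual degrees of freedom counted over libraries).

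**Figure D2:**
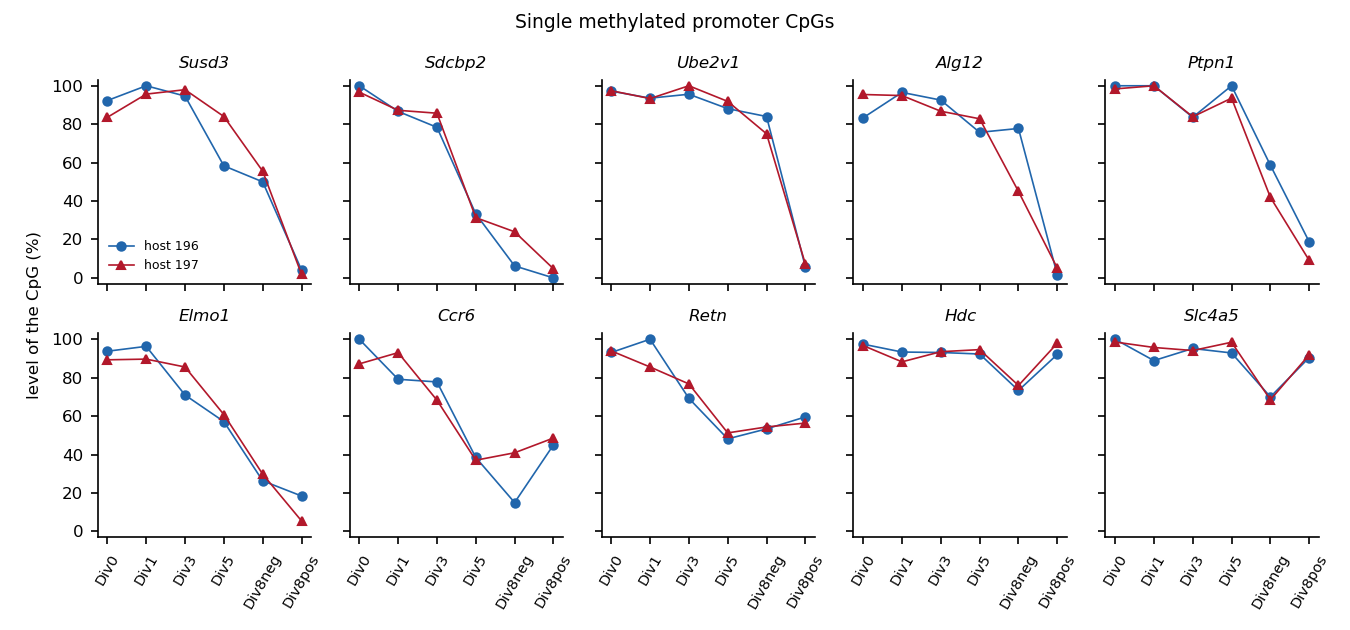
Level in percent of 10 single promoter CpGs by fraction, 1 line per host, named by the annotated gene. Sdcbp2, Ccr6 and Retn were already under 55% at Div5, Ube2v1 fell between Div8neg and Div8pos, and the Hdc and Slc4a5 CpGs were lowest at Div8neg.

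Plasmablasts were then compared with cells after 1 division. At Div8pos against Div1, 1587 of the 14513 CpGs (10.9%) were lower, where 6.14% of all CpGs and 8.39% of methylated CpGs outside promoters were called. Of the lower ones 1586 moved down in both hosts, as did 46608 of the 46668 called over all CpGs. The 1587 had a median difference of -26.2 points. They touched promoters of 1269 genes, of which 68 held 3 or more. A CpG 656 bp before Susd3, a sushi domain gene, at chromosome 13 position 49344732, had 100% and 95.7% at Div1, 58.3% and 84% at Div5, 50% and 55.6% at Div8neg and 4.17% and 1.90% at Div8pos. The last levels rested on 24 and 105 reads (95% exact Clopper-Pearson intervals 0.105% to 21.1% and 0.232% to 6.71%). An intronic CpG assigned to Alg12, an enzyme of N-glycan assembly, had 96.6% and 94.9% at Div1, 77.8% and 45% at Div8neg and 1.61% and 5.08% at Div8pos. A CpG 1057 bp before Ptpn1, a tyrosine phosphatase gene, had 100% in both hosts at Div1, 58.6% and 41.9% at Div8neg and 18.8% and 9.09% at Div8pos. The intronic Elmo1 CpG 2133 bp before a start site, in a gene for a regulator of Rac and migration, had 96.3% and 89.7% at Div1, 57.1% and 60.8% at Div5, 26.3% and 29.8% at Div8neg and 18.4% and 5.47% at Div8pos. The CpGs named here had at least 89.7% at Div1 and at most 18.8% in Div8pos in either host, unlike most of the set. With the host as a block the first fit made called 15540 of all CpGs lower, where the main model called 46668. In the set that fit gave 641. The count was 1555 with residual degrees of freedom counted over libraries, a way set after the first count had been seen. Without Div1 of host 197 it was 482. With the dispersion of each CpG estimated alone it was 0 (4775 at an unadjusted p under 0.05, a count not made over all CpGs).

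Whole promoters were compared by the mean over a gene's covered promoter CpGs with limma, for 8448 genes with at least 5 of them. A promoter is called lower at an adjusted p under 0.05 and a fall of at least 10 points. In 425 methylated promoters at least 80% of the covered CpGs belonged to the set. At Div3 and Div5 against Div1, 0 of these 425 were lower, with 0% and 0.0118% of all promoters called. At an unadjusted p under 0.05 in limma, in either direction, 14 and 33 of the 425 passed. Over all 8448 promoters 197 and 414 passed in the same way. At Div8pos against Div1, 137 of 425 were lower, with 4.21% of all promoters called. A promoter that starts low cannot fall by 10 points, so the 2 shares have different room. In all 137 the host values of Div8pos and Div1 did not overlap. The same held for all 356 called over all promoters, so this follows largely from the call and is no added support. The median difference over the 425 was -8.21 points, and over all 8448 it was -0.660.

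The largest fall was that of Fam83e, a member of a family of casein kinase-binding proteins (chr7:52974727-52975204 in mm9, 6 CpGs, 1354 to 1607 bp before the nearest start). Its level was 88.7% and 89.9% at Div1, 89.1% and 88.6% at Div5, 71.7% and 73.4% at Div8neg and 51.6% and 45.3% at Div8pos. The limma difference of Fam83e at Div8pos was -40.8 points (SE 1.74, adjusted p 4.95e-06). The promoter of Lgmn, which encodes the lysosomal protease legumain, had 98.6% and 97.9% at Div1, 88.0% and 85.5% at Div8neg and 65% and 64.6% at Div8pos. Its difference was -33.4 points (SE 0.913, adjusted p 4.96e-07). Tmem161a, a membrane protein gene, had 91.9% and 90.8% at Div1, 83.2% and 85.9% at Div5, 78.2% and 76.7% at Div8neg and 63.5% in both hosts at Div8pos. Its difference was -27.9 points (SE 1.15, adjusted p 4.50e-06). All 3 lay in the same order in both hosts, with Div1 highest and Div8pos lowest of Div1, Div8neg and Div8pos. Slc44a4 fell by 26.6 points (SE 4.35, adjusted p 0.00347), and its host values at Div8neg, 87.0% and 75.9%, lay far apart. Ablim1, which encodes an actin-binding LIM protein, fell by 24.5 points (SE 2.72, adjusted p 0.000515). Osbp2 (an oxysterol-binding protein), Snord1a (a small nucleolar RNA), Sec1 (a fucosyltransferase) and Slc12a7 (a potassium-chloride cotransporter) fell by 20.7 to 22.9 points.

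Cd37, a tetraspanin of mature B cells, held the most lower CpGs of the 425, 7 of the 12 it has in the set, which lie 1999 to 2160 bp before the start. Its 14 covered promoter CpGs had 84.7% and 80.8% at Div1, 80.4% and 65.4% at Div8neg and 65.1% and 58.9% at Div8pos. The difference of Cd37 was -20.7 points (SE 4.14, adjusted p 0.00894 by limma). Its call was lost without Div1 of host 196 (adjusted p 0.0693), without Div8pos of host 197 (adjusted p 0.0676) and with summed reads (adjusted p 0.0584).

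**Figure D3:**
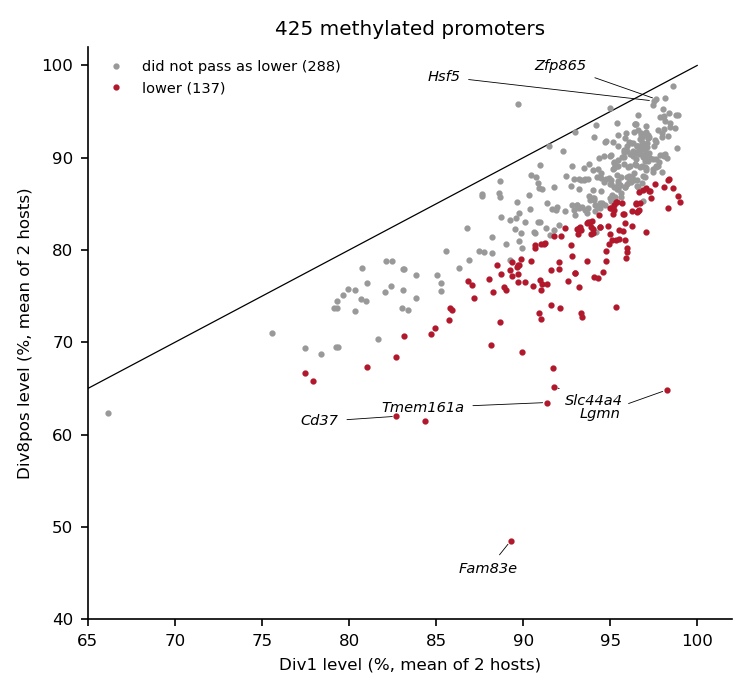
Mean level of the 425 methylated promoters at Div1 (horizontal) and Div8pos (vertical), in percent, each point the mean of 2 hosts; red points were called lower and the diagonal marks equal levels. Nearly all points lie under the diagonal, Fam83e and Lgmn farthest from it, and Zfp865 and Hsf5 next to it.

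**Figure D4:**
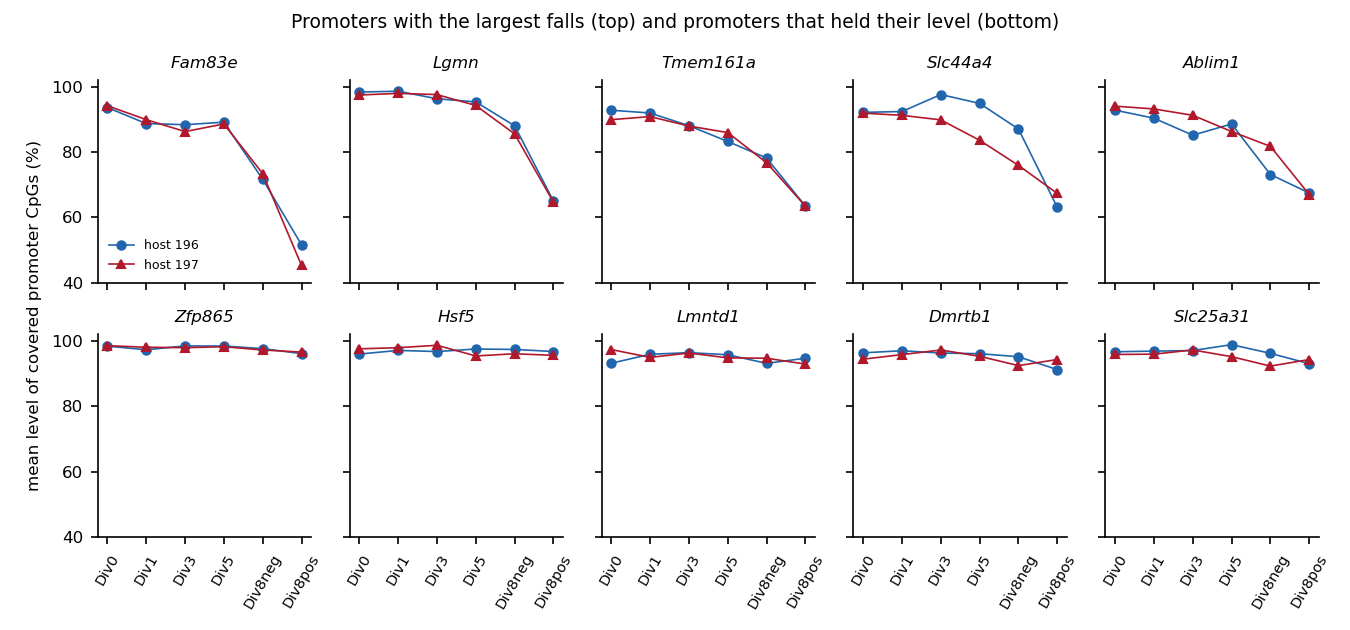
Mean level in percent of the covered promoter CpGs by fraction, 1 line per host. The top row holds 5 promoters with the largest falls, and the bottom row 5 not called lower at Div8pos. In the bottom row Dmrtb1 and Slc25a31 were chosen for their many CpGs of the set and the others for a small range. Fam83e reached 51.6% and 45.3% at Div8pos, and Zfp865 stayed between 96.1% and 98.5% over the 10 libraries other than Div0.

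Cells after 8 divisions without CD138 changed less. At Div8neg against Div1, 169 CpGs of the set (1.16%) were lower, where 0.671% of all CpGs and 0.863% of methylated CpGs outside promoters were called. Their median difference was -27.8 points, and they lay in promoters of 140 genes. With the host as a block the first fit called 141 of all CpGs lower, where the main model called 5101. In the set 4 were lower in that fit and 159 with the later way of counting degrees of freedom. Without Div1 of host 197 the count was 32, without Div8neg of host 197 it was 57, and edgeR called 69. Of the 425 methylated promoters 14 were lower, with 0.521% of all promoters called, and 4 without Div1 of host 196. The largest fall was that of Lrmp, a membrane protein of the endoplasmic reticulum in lymphoid cells. It had 92.7% and 91.5% at Div1, 93.1% and 90.9% at Div5, 73.6% and 75.3% at Div8neg and 77.9% and 69.5% at Div8pos. Its Div8neg difference was -17.6 points (SE 2.29, adjusted p 0.00744), and Div8pos differed from Div8neg by -0.738 points (adjusted p 0.928). The promoter of Hdc, the enzyme that makes histamine, had 88.5% and 91.1% at Div1, 79.5% and 76.0% at Div8neg and 82% and 80% at Div8pos. Its Div8neg difference was -12.0 points (adjusted p 0.0103). Lpar3, a receptor for lysophosphatidic acid, differed by -14.3 points (adjusted p 0.0356), with 77.6% and 86.2% at Div8neg and 86.1% and 82.2% at Div8pos. For Lrmp and Lpar3 the host values of Div8neg and Div8pos overlapped, and for Hdc they did not. Mir568, Cct2 (a chaperonin subunit), Tcf7l2 (a Wnt-pathway transcription factor), Fam83e, Ablim1, Tmem161a and Lgmn completed the 10 largest falls. Without Div1 of host 196 the Div8neg calls of Lrmp, Mir568, Lpar3, Ablim1, Cct2 and Tcf7l2 were lost (adjusted p 0.0654 to 0.156). Those of Hdc, Lpar3, Ablim1, Cct2 and Tcf7l2 were lost without Div1 of host 197 (adjusted p 0.0623 to 0.143). Without Div8neg of host 196 those of Lpar3, Ablim1 and Cct2 were lost (adjusted p 0.0906 to 0.102), and without Div8neg of host 197 those of Mir568 and Tcf7l2 (adjusted p 0.0511 and 0.0510). With summed reads the Div8neg calls of Lpar3, Ablim1 and Lgmn were lost (adjusted p 0.058 to 0.0975 by limma).

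CD138-positive and CD138-negative cells of the same division number were compared directly. At Div8pos against Div8neg, 182 of the set (1.25%) were lower, where 0.636% of all CpGs and 0.859% of methylated CpGs outside promoters were called. In the set 2 were higher, where 0.00697% of all CpGs were called. With the host as a block the first fit called 79 of all CpGs lower, where the main model called 4833. In the set 6 were lower in that fit and 158 with the later way of counting. Without Div8neg of host 197 the count was 29, without Div8neg of host 196 it was 85, without Div8pos of host 197 it was 47, and edgeR called 38. The Ube2v1 promoter, of a ubiquitin-conjugating enzyme variant, held a run of such CpGs between 1635 and 1673 bp before the start. The CpG at chromosome 2 position 167459152 had 93.5% and 93.3% at Div1, 88.1% and 91.9% at Div5, 84% and 75% at Div8neg and 5.71% and 7.20% at Div8pos. Its Div8neg difference from Div1 did not pass (adjusted p 0.111), and its difference of Div8pos from Div8neg was -73.0 points (adjusted p 1.97e-25 by the quasi-binomial model). The 3 CpGs of the set in the Irf4 promoter, 2263 to 2410 bp before the start of this plasma cell transcription factor gene, had a mean of 97.9% and 93.9% at Div1, 85.0% and 74.6% at Div8neg and 43.5% and 47.9% at Div8pos. All 3 were lower at Div8pos than at Div1, and 2 than at Div8neg. The 2 CpGs that were higher in Div8pos lay before Hdc and Slc4a5, a bicarbonate transporter. The Hdc CpG, 827 bp before the start, had 93.3% and 88.2% at Div1, 73.3% and 75.9% at Div8neg and 92.1% and 97.9% at Div8pos. The Slc4a5 CpG had 88.9% and 95.7%, 70% and 68.5%, and 90.5% and 91.9% in the same fractions. Both were lowest at Div8neg, and at Div8pos their difference from Div1 did not pass (adjusted p 0.251 and 0.657).

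Of the 425 methylated promoters, 27 were lower in Div8pos than in Div8neg, with 0.829% of all promoters called. Fam83e differed by -24.1 points (SE 1.74, adjusted p 0.000438 by limma) and Lgmn by -21.9 points (SE 0.913, adjusted p 1.98e-05). Tmem45a2, a membrane protein gene, had 90.7% and 91.4% at Div1, 85.9% and 87.1% at Div8neg and 71.7% and 73.3% at Div8pos, a difference between the late fractions of -14.0 points (SE 0.849, adjusted p 0.000128). Ptk6, which encodes an epithelial tyrosine kinase, had 93.4% and 95.1% at Div1, 90.7% and 90.1% at Div8neg and 78% and 75.9% at Div8pos. Osbp2, Sec1, Tmem161a, Pcbp4 (a poly(C)-binding protein), Gm13285 and Slc12a7 completed the 10 largest falls. The calls of Osbp2, Pcbp4 and Gm13285 were lost without Div8neg of host 196 or Div8pos of host 197 (adjusted p 0.0512 to 0.0810). That of Gm13285 was also lost without Div8pos of host 196 (adjusted p 0.114). With summed reads the calls of Osbp2, Gm13285 and Slc12a7 were lost (adjusted p 0.0638 to 0.25 by limma).

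Gene groups were described by their CpGs in the set, beside the whole set, of which 10.9% was lower at Div8pos than at Div1 with a median of -8.25 points (6.14% of all CpGs were lower). The difference of a group from the set was not tested. Of 137 CpGs in 19 germline genes 5 (3.65%) were lower at Div8pos and 0 at Div8neg by the quasi-binomial model, and the median differences were -3.33 and -1.93 points. Dazl, an RNA-binding protein of germ cells, held 23 such CpGs from 348 bp before to 199 bp after the start. Their mean was 97.4% and 96.6% at Div1, 95.5% in both hosts at Div8neg and 95.5% and 93.3% at Div8pos. Dmrtb1, a regulator of meiotic entry, held 18, whose mean was 97.0% and 95.8% at Div1 and 91.2% and 94.3% at Div8pos. In Stk31, a testis kinase-like gene, 9 CpGs had 96.8% and 99.5% at Div1, 90% and 93.4% at Div8neg and 97.5% and 95.5% at Div8pos. Not every germline promoter held its level. Piwil2, which acts in piRNA silencing, fell from 95.6% and 94.4% at Div1 to 78.5% and 85.0% at Div8pos, a difference of -13.2 points (SE 1.87, adjusted p 0.00161 by limma). Without Div8pos of host 196 it was -9.96 points, short of the limit. Fkbp6, a meiotic co-chaperone gene, held 2 of the 5 lower CpGs, and its promoter differed by -9.33 points, short of the 10-point limit. The germline CpGs had a median of 5 other covered CpGs within 100 bp, while in the whole set 26.1% had none and 46.8% had 1 to 2.

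Imprinted genes, whose promoters can be methylated on 1 parental copy, held 41 CpGs of the set, of which 1 was lower at Div8pos (median -3.17 points). The 15 CpGs of Mcts2 had 97.5% and 96.0% at Div1 and 96.4% and 91.8% at Div8pos. In genes of other lineages 4 of 28 CpGs of T cell genes were lower at Div8pos (median -7.25 points), 2 of 7 of myeloid genes (-12.9), 1 of 7 of NK cell genes (-9.12), 1 of 7 of erythroid genes (-5.03) and 1 of 11 of liver genes (-9.44). The promoter of Zap70, the T cell receptor kinase, had 95.7% and 95.6% at Div1 and 86.6% and 85.8% at Div8pos, a difference of -9.45 points, short of the limit. The promoter of Itgam, which encodes the myeloid integrin CD11b, fell by 14.9 points (SE 1.79, adjusted p 0.000734 by limma), from 92.3% and 95% at Div1 to 80.5% and 77.1% at Div8pos. Ermap, an erythroid membrane protein gene, had 88.9% and 95% at Div1, 74.4% and 82.9% at Div8neg and 79% and 84.3% at Div8pos. In sensory receptor genes 12 of 118 CpGs were lower (10.2%, median -8.80 points), and in zinc finger genes named Zfp 23 of 218 (10.6%, median -6.93 points), both near the share of the whole set.

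In genes used by B cells and plasma cells, 20 of 108 and 18 of 147 covered promoter CpGs belonged to the set. In B cell identity genes 9 of 20 were lower at Div8pos than at Div1 (median -19.2 points), of which 7 lay in Cd37. These 20 lay in dense stretches too, with a median of 7 other covered CpGs within 100 bp. Bach2, a repressor of plasma cell differentiation, had 1 lower of 4, whose mean went from 97.5% and 95.6% at Div1 to 82.4% and 79.4% at Div8pos. Blnk, an adaptor of B cell receptor signalling, had 1 of 3. Its whole promoter, 12 CpGs of which most are outside the set, fell by 20.4 points (SE 1.29, adjusted p 4.09e-05 by limma). In plasma cell genes 4 of 18 were lower (median -10.6 points), 3 of them in Irf4. In Toll-like receptor and NF-kB genes 3 of 14 were lower, 2 of them in Nfkbia, the NF-kB inhibitor, whose 3 CpGs had 86.4% and 82.8% at Div1 and 66.9% and 65.8% at Div8pos. In migration genes 3 of 4 were lower. The single Gpr183 CpG, 2391 bp before the start of this oxysterol receptor gene, had 100% and 94.7% at Div1, 83.3% and 73.3% at Div5, 47.4% and 66.7% at Div8neg and 36.4% and 10.8% at Div8pos. The single Klf2 CpG, in a gene for a factor that controls lymphocyte trafficking, had 100% and 95% at Div1 and 66.7% and 70% at Div8pos. These lists hold few members, and 1 gene accounts for most of the count in several of them.

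Some promoters held their level in every fraction. Zfp865, a zinc finger gene with 19 covered promoter CpGs, all in the set, had the smallest range, from 96.1% to 98.5% over the 10 libraries other than Div0. Its difference at Div8pos against Div1 was -1.33 points (SE 0.566, adjusted p 0.178 by limma). Hsf5 lay between 95.4% and 98.7%. Lmntd1 (a lamin tail domain gene), Ankrd50 (an endosomal sorting protein) and Klhdc2 (a substrate receptor of a ubiquitin ligase) followed. The Ankrd50 and Klhdc2 differences were small, at -2.86 and -4.28 points, yet had adjusted p-values of 0.0140 and 0.0311 by limma. The promoters of Lmntd1 and Tuba3b overlap. The 5 were chosen for a small range, so their steadiness is not a result.

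The position of the set within promoters differed from that of other promoter CpGs. Of its members 70.1% lay more than 500 and up to 2500 bp before the nearest start site, 8.87% more than 500 bp after it and 21.1% within 500 bp of it, against 16.9% and 78.4% of the 117863 promoter CpGs outside the set. No other covered CpG lay within 100 bp of 26.1% of them, against 3.69% of the other promoter CpGs and 29.4% of methylated CpGs outside promoters. The mean fall at Div8pos against Div1 differed with this count. It was -12.1 and -12.9 points in the 2 hosts for CpGs with no covered neighbour (3789 CpGs), -10.2 and -10.6 with 1 to 2, -7.48 and -7.99 with 3 to 5, -6.60 and -6.47 with 6 to 10 and -2.39 and -3.79 with 11 or more (99 CpGs). The share called lower went from 16.2% with no neighbour to 1.01% with 11 or more. Median coverage over libraries rose along the same bins, from 32 to 59 reads, and its part in the result was not tested. The same order appeared among methylated CpGs outside promoters, with mean differences from -11.5 to -3.87 points. Spearman's rho between the number of neighbours and the difference was 0.228 over the 14513 CpGs and 0.259 over the 368313 outside promoters, a description across CpGs that share libraries and fragments. Near the start site (within 500 bp) the mean difference was -8.70 points, farther upstream -10.4 points and more than 500 bp after the start -11.1 points. CpGs that also lay in an exon differed by -8.33 points, those in an intron by -10.5 and those in no transcribed feature by -10.7. On the X chromosome 117 CpGs differed by -6.53 points, against -9.42 to -11.9 on the autosomes.

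**Figure D5:**
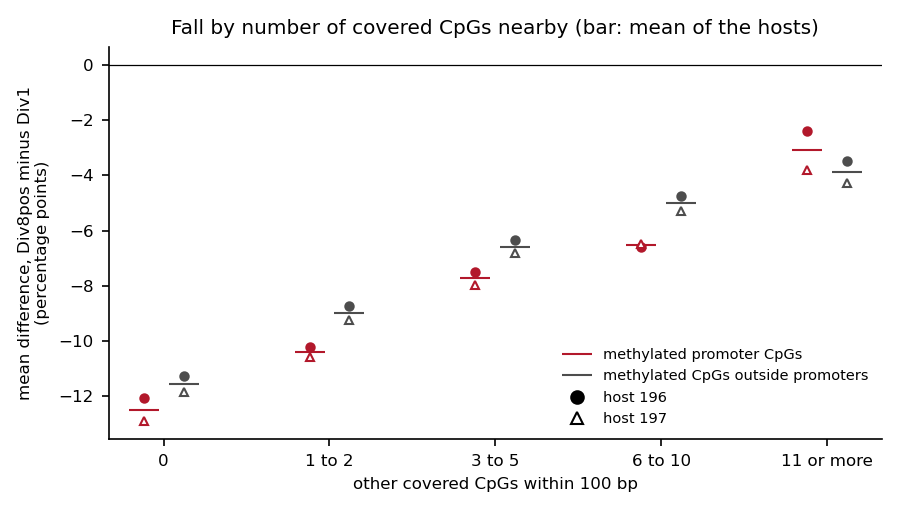
Mean difference in methylation level between Div8pos and Div1, in percentage points, by the number of other covered CpGs within 100 bp, for the promoter set (red) and methylated CpGs outside promoters (grey), with 1 symbol per host and a bar for the host mean. The difference was largest, over 11 points, for CpGs with no covered neighbour and under 5 points for those with 11 or more.

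RefSeq sequences matched 298 of the 425 methylated promoters. Their median number of CpGs in 300 bases was 9, against 22 over all genes with at least 5 covered promoter CpGs and 24 in those of them with no CpG of the set. The E-box CACGTG, searched in these windows and the same on both strands, was in 10.5% of the methylated promoters, 9.81% of those of all genes with at least 5 covered promoter CpGs and 7.15% of all 32851 RefSeq promoters. Among 24 sequences of 17 germline genes with a CpG of the set it was in 15 (62.5%), including those of Ddx4 and Slc25a31 printed above. The MspI site CCGG was in 60.6% of the methylated promoters, 85.0% of those of all genes with at least 5 covered promoter CpGs and 52.8% of all RefSeq promoters. Library preparation selects for CCGG.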

How the data were processed

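The 12 libraries (6 fractions in each of 2 hosts) were processed by the authors with Bismark and Bowtie2 on mm9. This comes from the submitters' processing notes, and no version is given in the sources used here. The table deposited by the authors gives counts of methylated and unmethylated reads per CpG, with at least 10 reads in every library, together with a methylation fraction, per the file headers. That fraction equalled methylated over all reads. Promoter annotation and distances are the authors' columns, in mm9. PCR duplicates carry no molecular identifier, so intervals and zero limits cover counting error only.

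The members and lists were chosen with earlier results of these data known. All 760348 CpGs were fitted by quasi-binomial logistic regression over the 12 libraries (fraction as term, dispersion moderated with squeezeVar of limma 3.58.1 to 1.16 times binomial variation for every CpG). Host 197 had the higher median coverage in every fraction and carried more weight. The dispersion, shared by every CpG, was estimated from host differences over all CpGs, so the host spread of a single CpG does not enter its p-value. Very small p-values of CpGs rest on their read counts. Promoter means were tested with limma, which uses the spread of each promoter between the 2 hosts, moderated over promoters. Only 2 hosts stand behind either test. The first 4 comparisons share the Div1 libraries. Alternatives were edgeR 4.0.16 on the counts, other limits and filters, each library left out, and a host block. Hosts pair the fractions, since equal numbers are the same animal per the labels; the correlations of host deviations between fractions were -0.0139 to 0.0284. The block fit was first made with residual degrees of freedom counted over fractions. They were then counted over libraries whose fitted level is neither 0 nor 1, because a CpG whose unmethylated reads lie in 1 host is fitted exactly. That change was made after the counts of the first fit had been seen, so both are given. Scripts were tested on simulated data. Named promoters were, per late comparison, the 10 largest falls past the threshold with both hosts in 1 direction (no rise passed), the promoter with the most lower CpGs, the 5 with at least 10 CpGs and the smallest range, and list genes with at least 3 members of which a CpG or the promoter passed, plus the 3 germline and 3 other-lineage genes with the most members. The single CpGs described and Gpr183, Klf2, Stk31, Ddx4, Oxgr1, AI661453 and Mcts2 were chosen after their values were seen.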

Additional observations from a re-analysis of the deposited data

How the results depend on the processing

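No result reversed. The promoter counts were the steadier ones: with a host block, and with each library left out, they stayed within 1.5 times of the main count at Div8pos against Div1 (122 to 140) and against Div8neg (20 to 33), while at Div8neg against Div1 they ranged from 4 to 16. The CpG counts depend on how the spread is estimated, and those over all CpGs fell with the first block fit as well. In the order Div3, Div5, Div8neg and Div8pos against Div1 and Div8pos against Div8neg, the main counts were 0, 17, 169, 1587 and 182. The replicate block gave 0, 0, 4, 641 and 6 in the first fit and 0, 17, 159, 1555 and 158 with the degrees of freedom counted over libraries, set after those first counts had been seen. Both fits hold the same host term and differ only in how the residual spread is counted and moderated. The drop in the first fit can therefore not be read as an effect of the pairing alone. Which of the 2 counts is right decides whether most CpG calls hold with the host as a block, and nothing here settles it. With the dispersion of each CpG alone all 5 counts were 0 (129, 248, 1460, 4775 and 1212 at an unadjusted p under 0.05). The unadjusted counts of that setting were not made over all CpGs, so they have no share to be set against. Leaving out 1 library gave 0 to 0, 1 to 19, 32 to 181, 482 to 1704 and 29 to 184.

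For the last 4 comparisons, at least 20 reads in every library gave 6, 77, 430 and 82, a Div0 level of at least 90% 5, 86, 891 and 113, and CpGs within 1000 bp of a start site 4, 65, 613 and 68. edgeR gave 5, 69, 1234 and 38. A limit of 10 points gave 1 at Div3, 332 at Div8neg and 3879 at Div8pos, and no limit 1, 348 and 4450. For methylated promoters at Div8neg against Div1, Div8pos against Div1 and Div8pos against Div8neg, at least 3 CpGs gave 27, 305 and 71, at least 10 CpGs 1, 20 and 3, a limit of 20 points 0, 11 and 2, and no limit 54, 329 and 112. Summed reads gave 7 at Div8neg. The cause of these changes was not tested, beyond fewer or more features being counted.

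The mean levels moved with the Div0 limit: at 90% they were 97.067, 95.975, 95.82, 95.27, 91.664 and 86.889%, and at 70% 93.721, 93.106, 92.932, 92.107, 87.919 and 82.588%, from Div0 to Div8pos. Within 1000 bp of a start site they were 94.092% at Div1, 93.94% at Div3 and 93.263% at Div5. Leaving out 1 host gave 94.979 to 95.447, 94.444 to 94.545, 94.147 to 94.493, 93.43 to 93.799, 89.252 to 89.908 and 84.068 to 84.67%. Among named promoters, 43 of the alternatives ended a call and 2 made one, 34 and 1 of them by leaving out a library. Depth limits single CpGs: the Susd3 level of 4.17% at Div8pos in host 196 rests on 24 reads, with an interval of 0.105% to 21.1%.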
